A study of Mus musculus with 58 samples.

Results

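The Slc22 and Slco genes encode the organic ion transporters: membrane carriers that move drugs, bile acids, urate, carnitine, hormone conjugates and the conjugated products of toxicants into and out of liver and kidney cells. Members were taken as every row of the deposited kidney table whose symbol begins with Slc22a or Slco followed by a number, together with the liver rows of the same RefSeq transcripts, and transcripts were summed per symbol. This gave 39 genes of 24077, of which 25 were Slc22 and 14 Slco genes, built from 48 transcripts. The rule used names alone and no measured value, but it was chosen with earlier results of these data known. A total of 32 members had 1 transcript and 7 had several: Slc22a8, Slc22a18, Slco1a5, Slco1c1, Slco2b1, Slco3a1 and Slco6d1. The tables count each transcript separately and put reads that fit several features in an ambiguous line, so the levels of these 7 genes are uncertain and may be understated.

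The study gave male mice a single dose by gavage of trichloroethylene (TCE) or tetrachloroethylene (PCE), chlorinated solvents used for degreasing and dry cleaning, and sequenced total RNA of liver and kidney in 58 libraries. PCE carries a chlorine where TCE carries a hydrogen, and the chemicals were given at matched molar doses, labelled 0, 0.22, 0.67, 2 and 6 mmol/kg. The sources list the doses above 0 as 24, 80, 240 and 800 mg/kg TCE and as 30, 100, 300 and 1000 mg/kg PCE. The molar labels are used here as given and are not exact conversions of these masses. All animals, the vehicle groups of each chemical included, received the same aqueous vehicle with 5% surfactant at 5 mL/kg. The growth protocol names B6C3F1/J males of 5 to 6 weeks with a further week of acclimatisation, whereas the strain label of every sample reads C57BL/6, and the time between dosing and sampling is not given in the sources used here. Each of the 20 groups held 3 libraries, except the kidney vehicle group of PCE and the liver group at 0.67 mmol/kg PCE, which held 2. The labels do not say that replicates were separate animals, so p-values measure the spread between these libraries. Counts assigned to genes ran from 30932385 to 125880542 per liver library and from 23247565 to 32420329 per kidney library.

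Slc22 proteins fall into organic anion transporters, which take up anions in exchange for dicarboxylates, organic cation transporters, which are driven by the membrane potential, and carnitine or zwitterion transporters. Slco proteins, the organic anion transporting polypeptides, carry larger amphipathic anions such as bile acids, bilirubin, thyroid hormones and steroid conjugates. In the kidney these carriers sit mainly in the proximal tubule, where they drive secretion of organic ions into urine and reabsorption of urate and carnitine. In the liver they sit on the blood-facing membrane of hepatocytes, upstream of metabolism and biliary export.

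Marker levels fitted the tissue labels: the 3 loop of Henle markers were at 0 in nearly every liver library (Slc12a1 and Cldn10 in 29 of 29, Umod in 28 of 29), and albumin (Alb) reached at most 82.9 CPM (a count scaled to the size of its library) in kidney against at least 50932 CPM in liver. A kidney library stood apart: TCE 0.67 mmol/kg replicate 3 carried adrenal cortex transcripts, with a summed level of 5028 CPM over 5 markers, against 3.26 to 16.5 CPM in the other kidney libraries. In kidney TCE 2 mmol/kg replicate 2 the summed level of 5 markers of the first segments of the proximal tubule (S1 and S2) was 10444 CPM, the lowest of 29, and that of 4 collecting duct markers was 834 CPM, the highest. This library was also highest for loop of Henle (143 CPM), cholangiocyte (320 CPM) and tubular injury markers (17 CPM), and lowest for distal tubule markers (244 CPM). Its markers of the last proximal tubule segment (S3) summed to 2483 CPM, within the kidney range of 943 to 2642 CPM. Brown fat markers ranged from 1.01 to 184 CPM over the kidney libraries. In liver the tubular injury markers, which include Lcn2, summed to 1715, 18.4 and 937 CPM in the TCE vehicle group. They summed to 13.6 to 18.5 CPM in the PCE vehicle group and to 336, 20.1 and 17.1 CPM at 6 mmol/kg PCE. Lcn2 alone had a median of 6.76 CPM over the liver libraries and reached 1706 CPM. The part of this spread in the liver comparisons was not tested. Leaving out both the adrenal-bearing library and the one poor in S1 and S2 markers was an alternative chosen after seeing the data. It gave 2 calls among the members for TCE at 6 mmol/kg and 7 for PCE, as many as with all libraries. Neither library belongs to the groups compared there, so they enter only through the shared spread, filter and scaling. The slope over the TCE doses in kidney, which includes both, gave 2 calls without them in place of 0. CPM values below are scaled by trimmed mean of M-values (TMM) within a tissue, and levels per length, called RPKM here, are CPM per kilobase of transcript, scaled by TMM over all 58 libraries.

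In vehicle libraries the kidney held the broader set of transporters. At 1 RPKM or more stood 24 members in kidney (18 Slc22 and 6 Slco) and 15 in liver (11 Slc22 and 4 Slco), of which 11 reached it in both tissues and 11 further members in neither. At 10 RPKM or more stood 18 members in kidney and 9 in liver.

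**Figure D1:**
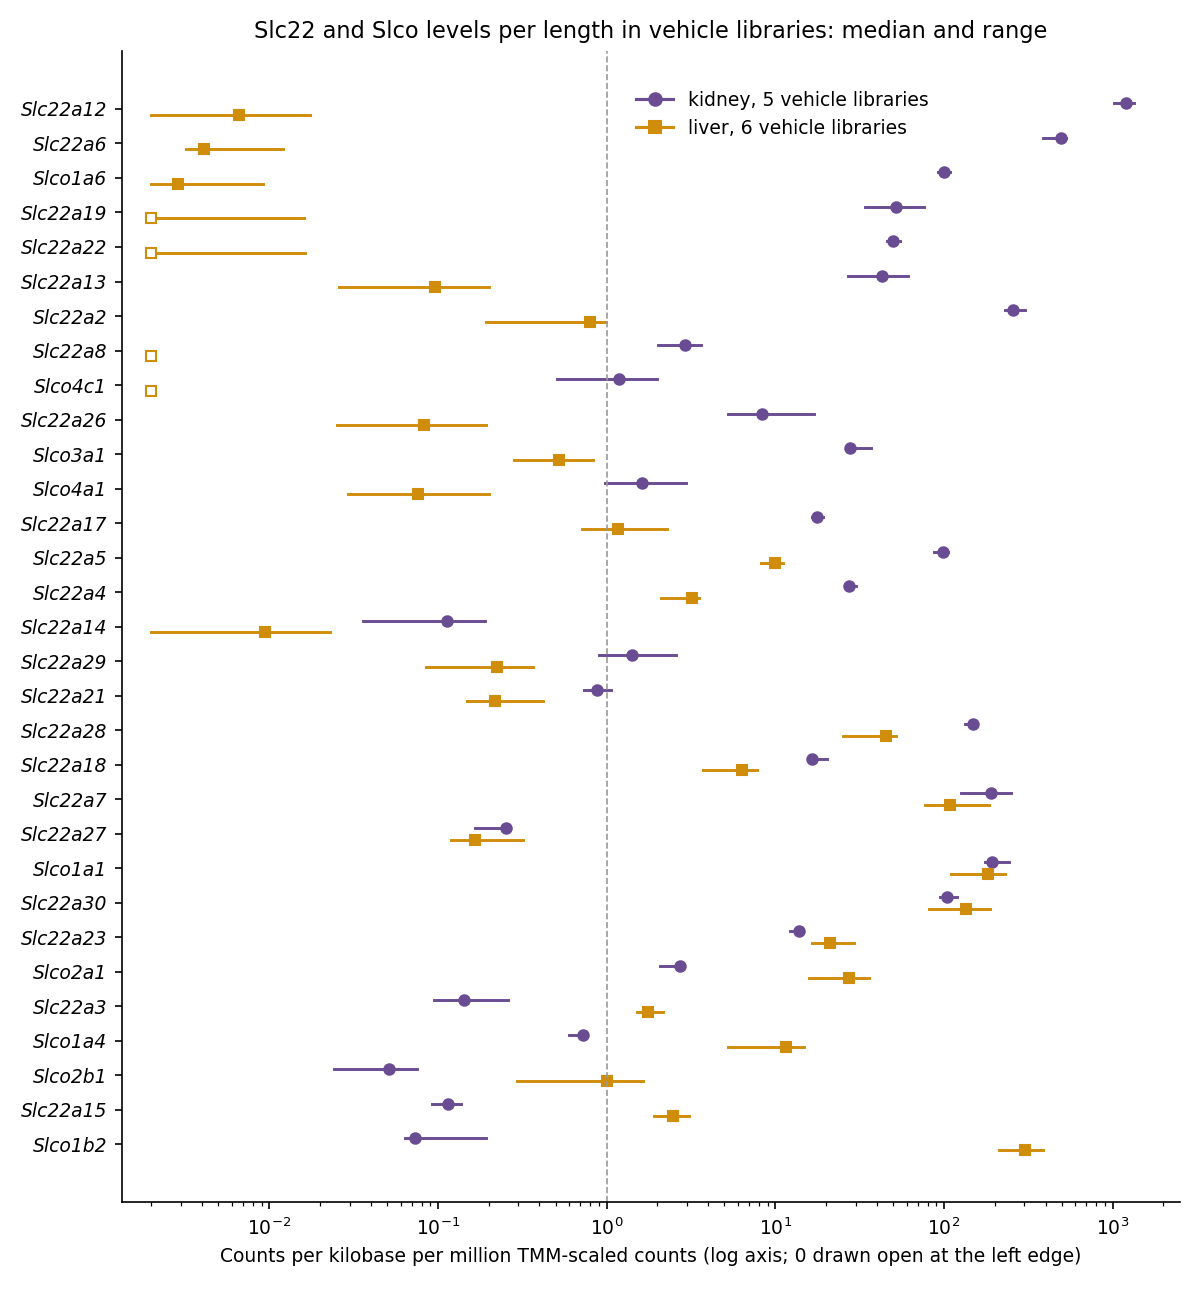
Level per length of 31 of the 32 members whose mean reached 0.1 RPKM in either tissue, as median (symbol) and range (line) over the vehicle libraries, on a log axis, ordered by the kidney to liver ratio. Slc22a12 and Slc22a6 lie at 385 RPKM or more in kidney and at 0.0175 RPKM or less in liver, Slco1b2 lies at 213 RPKM or more in liver and at 0.193 RPKM or less in kidney, and Slco1a1 and Slc22a30 lie between 81.8 and 243 RPKM in both.

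The highest level per length in kidney was that of Slc22a12, the apical urate transporter URAT1, at 1190 ± 121 RPKM (SD, n = 5), with single libraries between 1019 and 1343. It was followed by Slc22a6, the basolateral anion transporter OAT1, at 482 ± 60.6 RPKM, and by the cation transporter Slc22a2 (OCT2) at 264 ± 28.5 RPKM. Slco1a1, a carrier of steroid and bile acid conjugates, stood at 201 ± 25.8 RPKM. The range of Slc22a12 lay above that of every other member, and the range of Slc22a6 lay above those below it. The ranges of Slc22a2, Slco1a1 and Slc22a7 (OAT2, 126 to 251 RPKM) overlapped. Slc22a8, which encodes the anion transporter OAT3, stood at only 2.97 ± 0.609 RPKM, but its 3 transcripts were counted apart and the value is uncertain.

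In liver the order was led by Slco1b2, the main hepatic carrier of this family for bilirubin and drugs, at 299 ± 76.5 RPKM (SD, n = 6), with libraries between 213 and 386. Lower levels were those of Slco1a1 at 179 ± 46.3, Slc22a30 (a rodent-specific anion transporter) at 134 ± 40.2 and Slc22a7 at 120 ± 38.6 RPKM. The ranges of each neighbouring pair of these overlapped, so the order of neighbours does not exceed the spread between libraries. The range of Slco1b2 lay above those of Slc22a30 (at most 188 RPKM) and Slc22a7 (at most 184 RPKM). Slc22a28, a close relative of Slc22a30, stood at 42.8 ± 10.5 RPKM, and Slco2a1, the prostaglandin carrier, at 26.2 ± 7.48 RPKM. Slc22a26 to Slc22a30 are tandem copies of similar sequence on chromosome 19, and how reads that fit several copies were counted is not given in the sources used here.

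Between tissues, 27 of the 31 members tested in vehicle libraries differed by edgeR's quasi-likelihood test at an adjusted p under 0.05: 20 were higher in kidney and 7 lower. Of all 14508 genes tested, 34.1% were called higher in kidney and 32.8% lower. The median log2 difference (kidney minus liver) was 2.81 over the members against -0.02 over all genes. These values depend on how the tissues are scaled against each other. With library totals in place of TMM, an alternative chosen after seeing the data, the median over all genes moved to 1.02, the share of called genes that were higher in kidney went from 51% to 84.5%, and 24 members were called higher and 6 lower. Small differences towards liver can therefore turn with the scaling, as those of Slc22a23 and Slc22a30 did. Bulk RNA cannot tell fewer cells of a type from less RNA per cell.

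The widest differences towards kidney were those of Slc22a12 (log2 difference 17.11, SE 0.36, adjusted p = 7.57e-14 by edgeR), Slc22a6 (16.17) and Slco1a6 (14.30), followed by Slc22a19 and Slc22a22. Slc22a12 had 506686 counts over the 5 kidney vehicle libraries and 7 over the 6 liver ones. Slc22a6 had 367677 counts against 10, Slco1a6 54779 against 5, Slc22a22 22873 against 3, and Slc22a19 20792 against 2. The last carries anions on the apical membrane of the late proximal tubule, Slc22a22 is a prostaglandin-specific anion transporter of mouse kidney, and Slco1a6 is a kidney member of the Slco1a branch. For the pair with 3 liver counts or fewer the ratio of mean kidney to mean liver level was 22562 for Slc22a19 (95% exact Poisson interval 6246 to 186306, counting error only) and 16331 for Slc22a22 (5588 to 79191). Slc22a8 and Slco4c1, the basolateral carrier of digoxin and thyroid hormone in kidney, had 0 counts in all 6 liver vehicle libraries. Against a floor of 3 counts over that group, Slc22a8 was at least 1419-fold higher in kidney and Slco4c1 at least 847-fold higher.

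Among the other anion transporters higher in kidney were Slc22a13 (log2 difference 8.81), Slc22a26 (6.67), Slc22a29 (2.81) and Slc22a28 (1.81). Of the cation transporters, Slc22a2 was higher in kidney by 8.54 and Slc22a3 (OCT3) lower by a log2 difference of -3.55. All 3 carnitine and zwitterion transporters tested were higher in kidney: Slc22a5 (OCTN2, the sodium-dependent carnitine carrier) by 3.32, Slc22a4 (OCTN1, which carries ergothioneine) by 3.22 and Slc22a21 (a rodent carnitine carrier) by 1.88. Slco3a1 (5.80) and Slco4a1 (4.33), both thyroid hormone carriers, and Slc22a17 (3.85), a lipocalin 2 receptor, were higher in kidney as well, as was Slc22a18 (1.54).

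Towards liver, the widest difference was that of Slco1b2, at -11.45 (SE 0.40, adjusted p = 8.44e-12 by edgeR), with 420129 liver counts against 66 in kidney. It was followed by Slc22a15 (-4.41), Slco2b1 (-4.21, from 3 transcripts counted apart), Slco1a4 (-3.93), a bile acid and digoxin carrier, Slc22a3 (-3.55) and Slco2a1 (-3.35). Slc22a23 was called lower in kidney at -0.70, but with library totals the value was 0.34 with an adjusted p of 0.102 by edgeR, and with the PCE vehicle groups only it did not pass either (adjusted p = 0.142). Slc22a7 was called higher in kidney at 0.66, and at 1.74 with library totals, but not with the TCE vehicle groups only (adjusted p = 0.103, edgeR) or without kidney TCE vehicle replicate 1 (adjusted p = 0.0505, edgeR). Slc22a27 (0.25), Slc22a30 (-0.31) and Slco1a1 (0.19) did not pass with TMM. With library totals these 3 were called higher in kidney, at 1.28, 0.72 and 1.21 in that order. With TMM, Slc22a30 was called in the other direction, lower in kidney, with the PCE vehicle groups only (-0.70, adjusted p = 0.0117, edgeR) and without liver TCE vehicle replicate 1 (-0.42, adjusted p = 0.0256, edgeR). Slc22a27 was called higher with the TCE vehicle groups only (0.86, adjusted p = 0.0445, edgeR).

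Neighbouring members did not always share a tissue. On chromosome 6 (GRCm38), Slco1c1, Slco1b2, Slco1a4, Slco1a1, Slco1a6 and Slco1a5 lie side by side between 141524354 and 142322981. Within that block Slco1b2 and Slco1a4 were higher in liver, Slco1a6 was higher in kidney, and Slco1a1, which lies between Slco1a4 and Slco1a6, stood at 201 RPKM in kidney and 179 RPKM in liver. On chromosome 17, Slc22a3 and Slc22a2 are neighbours between 12419972 and 12628489, of which Slc22a3 was higher in liver and Slc22a2 higher in kidney. On chromosome 11, Slc22a5, Slc22a21 and Slc22a4 are neighbours between 53864542 and 54030040 and were all higher in kidney. On chromosome 19, Slc22a8 and Slc22a6 lie between 8591254 and 8628299, next to the run of Slc22a26, Slc22a27, Slc22a28, Slc22a29 and Slc22a30.

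RefSeq promoter windows of build GRCm38.p6, from 250 bases before a start to 50 after it, were at hand for 34 of the 39 members (39 windows), and were absent from the table for, among others, Slc22a7, Slc22a21, Slco3a1 and Slco5a1. The direct repeat of AGGTCA with 1 base between, the DR1 element that HNF4A and the PPARA and RXRA pair bind, was searched on both strands with at most 1 mismatch. It was found in 2 member windows, those of Slco1a1 and Slco4a1, and in 0.554% of all 32851 windows. The antioxidant response element, TGACNNNGC without mismatch, was found in 4 member windows (Slc22a20, Slc22a27, Slco4c1 and Slco6d1), or 10.3%, and in 12.4% of all. The HNF1 motif, GTTAAT and ATTAAC with 1 base between and at most 1 mismatch, was found in 0 of 39 member windows and in 0.207% of all. A match is a run of letters and not a shown binding site. The 250 bases before the start are given below in the direction of transcription for 4 members with a dose response or tissue difference. Matches are in capitals: the DR1 match of Slco1a1 (chr6:141946963-141947212, minus strand) and of Slco4a1 (chr2:180460728-180460977, plus strand), and the antioxidant response elements of Slco4c1 (chr1:96872172-96872421, minus strand). Slc22a5 (chr11:53891704-53891953, minus strand), the member that rose with PCE in both tissues, has none of these motifs in its window. The part of the motifs in dose responses or tissue differences was not tested.
Slco1a1: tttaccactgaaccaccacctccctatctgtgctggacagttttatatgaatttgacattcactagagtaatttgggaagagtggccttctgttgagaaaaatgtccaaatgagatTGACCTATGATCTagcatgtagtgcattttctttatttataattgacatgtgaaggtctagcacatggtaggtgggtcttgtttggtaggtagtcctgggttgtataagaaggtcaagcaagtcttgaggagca
Slco4a1: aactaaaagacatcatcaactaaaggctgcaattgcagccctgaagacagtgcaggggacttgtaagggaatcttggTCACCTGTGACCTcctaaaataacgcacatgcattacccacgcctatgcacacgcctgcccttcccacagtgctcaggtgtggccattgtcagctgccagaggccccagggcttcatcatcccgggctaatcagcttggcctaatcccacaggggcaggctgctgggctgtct
Slco4c1: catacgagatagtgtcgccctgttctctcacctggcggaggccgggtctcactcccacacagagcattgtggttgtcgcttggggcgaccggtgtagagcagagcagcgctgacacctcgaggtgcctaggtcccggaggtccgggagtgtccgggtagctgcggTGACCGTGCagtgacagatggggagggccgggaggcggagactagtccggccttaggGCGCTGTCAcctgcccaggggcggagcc
Slc22a5: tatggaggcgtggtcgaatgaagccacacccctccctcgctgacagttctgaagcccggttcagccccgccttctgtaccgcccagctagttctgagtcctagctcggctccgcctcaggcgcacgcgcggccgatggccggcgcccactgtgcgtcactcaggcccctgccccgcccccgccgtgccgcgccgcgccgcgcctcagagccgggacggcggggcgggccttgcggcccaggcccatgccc

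In kidney, PCE at 6 mmol/kg changed 7 of the 32 members tested against its own vehicle group. Of these, 5 fell, namely the anion transporters Slc22a7, Slc22a28 and Slc22a22, and the polypeptides Slco1a1 and Slco3a1, and the carnitine carriers Slc22a5 and Slc22a21 rose. Of all 14200 genes tested in kidney, 3.85% were called in the same comparison. The median log2 change over the 32 members was -0.08, against 0.03 over all genes, and 14 members were above 0. TCE at the same molar dose changed 2 of 32 members, Slc22a7 and Slco3a1, both lower, where 0.176% of all genes were called. Each call is an adjusted p under 0.05 by edgeR's quasi-likelihood test over all kidney genes.

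**Figure D2:**
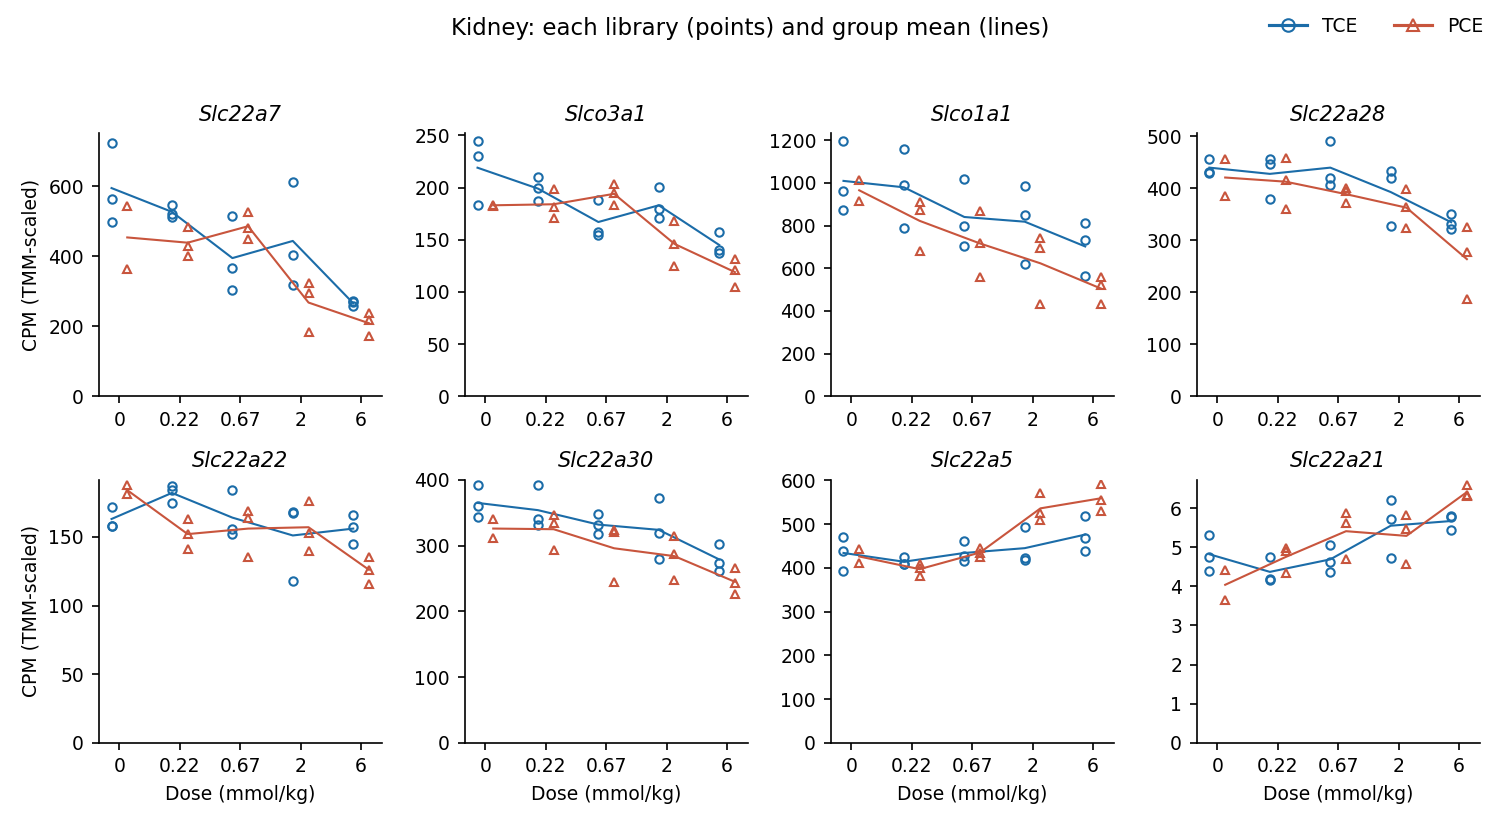
CPM of 8 members in each of the 29 kidney libraries (points) and group means (lines) against dose in mmol/kg, TCE in circles and PCE in triangles. At 6 mmol/kg all 3 libraries of each chemical lie below all of their own vehicle libraries for Slc22a7, Slco3a1, Slco1a1, Slc22a28 and Slc22a30, and all PCE libraries lie above theirs for Slc22a5 and Slc22a21.

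Slc22a7 takes up small organic anions such as nucleotides and prostaglandins. It was at 724, 498 and 563 CPM in the kidney TCE vehicle libraries and at 272, 257 and 270 CPM at 6 mmol/kg TCE. The PCE vehicle libraries held 364 and 543 CPM and those at 6 mmol/kg PCE 217, 239 and 172 CPM. Neither chemical's 6 mmol/kg group overlapped its vehicle group. The log2 change was -1.16 (SE 0.23, adjusted p = 0.0362) with TCE and -1.12 (SE 0.25, adjusted p = 0.0119) with PCE by edgeR. At 2 mmol/kg the PCE libraries held 324, 294 and 185 CPM, all below the vehicle libraries, and the TCE libraries 318, 612 and 403 CPM, which overlapped theirs. Lack of overlap was common: with PCE, 24.2% of all kidney genes lay wholly to either side of vehicle at 2 mmol/kg and 31.9% at 6 mmol/kg. With TCE at 6 mmol/kg the share was 15.9%.

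Slco3a1, which carries prostaglandins and thyroxine, was at 245, 230 and 183 CPM in the TCE vehicle group and at 137, 140 and 157 CPM at 6 mmol/kg TCE. In the PCE vehicle group it was at 182 and 183 CPM and at 6 mmol/kg PCE at 132, 121 and 105 CPM. Both treated groups lay wholly below their vehicle groups. The log2 change was -0.60 (SE 0.11, adjusted p = 0.0236, edgeR) with TCE and -0.62 (SE 0.12, adjusted p = 0.00542, edgeR) with PCE. Its 2 transcripts were counted apart.

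Slco1a1 fell from 917 and 1014 CPM in the PCE vehicle group to 431, 521 and 561 CPM at 6 mmol/kg, a log2 change of -0.94 (SE 0.24, adjusted p = 0.0259, edgeR). Its libraries at 2 mmol/kg PCE (740, 433 and 696 CPM) also lay below the vehicle ones. With TCE the vehicle libraries held 1194, 961 and 873 CPM and those at 6 mmol/kg 563, 730 and 811 CPM, without overlap, but the change of -0.52 (SE 0.22) had an adjusted p of 0.383 by edgeR.

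Slc22a28 and Slc22a30 are neighbouring rodent anion transporters on chromosome 19. With PCE, Slc22a28 went from 386 and 456 CPM in vehicle to 188, 278 and 326 CPM at 6 mmol/kg, where replicate 1 was the lowest of all 29 kidney libraries. The log2 change was -0.67 (SE 0.16, adjusted p = 0.0144, edgeR). Slc22a30 went from 311 and 341 CPM to 226, 243 and 266 CPM, a change of -0.41 with an adjusted p of 0.0696 by edgeR, which did not pass. It passed with both vehicle groups pooled (-0.49, adjusted p = 0.00335) and by DESeq2 (adjusted p = 0.0333). With TCE, Slc22a28 stood at 430, 457 and 432 CPM in vehicle and at 332, 322 and 350 CPM at 6 mmol/kg, a change of -0.39 with an adjusted p of 0.29 by edgeR. Slc22a30 with TCE stood at 392, 343 and 360 CPM and then at 273, 261 and 303 CPM (change -0.39, adjusted p = 0.168, edgeR). None of these 4 pairs of groups overlapped.

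Slc22a22 was at 181 and 188 CPM in the PCE vehicle group and at 116, 126 and 135 CPM at 6 mmol/kg (log2 change -0.55, SE 0.12, adjusted p = 0.0116, edgeR). With TCE its vehicle libraries (158, 158 and 172 CPM) overlapped those at 6 mmol/kg (145, 166 and 157 CPM), and the change was -0.06 (SE 0.11).

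The carnitine carriers moved the other way. Slc22a5 was at 442 and 411 CPM in the PCE vehicle group, at 526, 510 and 572 CPM at 2 mmol/kg and at 556, 530 and 591 CPM at 6 mmol/kg, and both dose groups lay wholly above vehicle. The log2 change at 6 mmol/kg was 0.39 (SE 0.09, adjusted p = 0.0103, edgeR). With TCE it stood at 470, 438 and 393 CPM in vehicle and at 469, 439 and 519 CPM at 6 mmol/kg, with overlap and a change of 0.13 (SE 0.08, adjusted p = 0.595, edgeR). Slc22a21, its neighbour on chromosome 11, is far scarcer, at 4.42 and 3.66 CPM in the PCE vehicle group and at 6.32, 6.58 and 6.33 CPM at 6 mmol/kg. Its log2 change was 0.67 (SE 0.15, adjusted p = 0.00917, edgeR), and with TCE it was 0.24 (SE 0.13, adjusted p = 0.565, edgeR), from 5.3, 4.39 and 4.76 CPM to 5.77, 5.44 and 5.8 CPM.

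The 7 calls with PCE rest on a vehicle group of 2 libraries. Without vehicle replicate 2, 0 of the 7 passed, with adjusted p-values from 0.0816 (Slco3a1) to 0.278 (Slc22a7), and without vehicle replicate 1 only Slc22a7 and Slc22a21 passed, where the lone vehicle library left is assumed to vary like the other groups. Without PCE 6 mmol/kg replicate 1, Slc22a22 (0.055), Slc22a28 (0.058) and Slco1a1 (0.12) did not pass. With the kidney libraries of PCE fitted alone, Slc22a28 (0.068) and Slco1a1 (0.0505) did not pass. All adjusted p-values here are from edgeR, and the log2 changes of the lost calls kept their signs. For TCE, Slc22a7 lost its call when any 1 library of the pair of groups was left out except vehicle replicate 3 (adjusted p from 0.058 to 0.286). Slco3a1 lost its call without vehicle replicate 1 (0.243) or 2 (0.114) and without 6 mmol/kg replicate 1 (0.145) or 2 (0.238). With kidney TCE libraries fitted alone, neither passed (0.0719 and 0.0604), and Slc22a7 did not pass with no filter on low counts (0.063) or with both vehicle groups pooled (-0.96, adjusted p = 0.0514).

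The summed level of 5 markers of the last segment of the proximal tubule (S3), of which Slc22a19 is one, lay lower at 6 mmol/kg without overlap. It was 2642, 1859 and 2167 CPM in the TCE vehicle group and 1401, 1215 and 1234 CPM at 6 mmol/kg TCE. It was 1551 and 1933 CPM in the PCE vehicle group and 1002, 1099 and 952 CPM at 6 mmol/kg PCE. Of the 5 genes, Slc7a13, a cystine carrier of the male S3 segment, was called at 6 mmol/kg with each chemical (-0.96 with TCE, -1.21 with PCE), and the other 4 were not. Slc7a13 alone had a median of 1156 CPM over the kidney libraries, and the median log2 change over the 5 was -0.46 with TCE and -0.09 with PCE. S1 and S2 markers summed to 17672 and 17812 CPM in the PCE vehicle group and to 12684, 15388 and 16664 CPM at 6 mmol/kg PCE, all below vehicle, while with TCE the groups overlapped (13394 to 15631 and 14140 to 15426 CPM). Other sums that did not overlap at 6 mmol/kg PCE were those of 3 distal tubule markers (426 and 457 CPM in vehicle, 256 to 371 CPM treated), 3 loop of Henle markers (42.9 and 60.9, then 65.7 to 94.6 CPM), 4 tubular injury markers (3.92 and 4.3, then 7.38 to 10.8 CPM), 4 macrophage markers (59.8 and 80.4, then 42.7 to 56.2 CPM) and 6 hepatocyte markers (354 and 374, then 206 to 327 CPM). With TCE the macrophage sum also lay lower without overlap (86.1 to 124, then 58.4 to 72.2 CPM). Single genes made up most of the macrophage and hepatocyte sums, with kidney medians of 78.6 CPM for Csf1r and 357 CPM for Ttr. The median log2 change over the genes tested with PCE was 0.73 for the macrophage and 0.45 for the hepatocyte list, opposite to their sums. It was -0.43 for the distal tubule, 0.51 for the loop of Henle and 0.82 for the injury list, in the direction of theirs. By edgeR 0 genes of these 5 lists or of the S1 and S2 list were called in kidney at 6 mmol/kg PCE. An unadjusted p under 0.05 was reached by 2 injury markers and by 1 each of the distal tubule, macrophage, hepatocyte and S1 and S2 markers. Of all 14200 genes, 2326 reached it. Of all single kidney genes, 31.9% did not overlap vehicle at 6 mmol/kg PCE and 15.9% at 6 mmol/kg TCE. The part of the tubule segments and of these other cell types in the changes of the members was not tested.

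At the lower doses no member was called in kidney by edgeR's test. With PCE, 0 of 32 members passed at 0.22, 0.67 and 2 mmol/kg, where 0%, 0% and 0.0141% of all genes were called. With TCE, 0 of 32 passed at the same doses, where 0%, 0.00704% and 0% of all genes were called. An unadjusted p under 0.05 was reached by 882, 1174 and 868 of 14200 genes with PCE and by 725, 1757 and 604 with TCE. Among the members it was reached by 2, 2 and 7 with PCE and by 0, 8 and 4 with TCE, and DESeq2 called 0. Among the 7 at 2 mmol/kg PCE were 5 that were called at 6 mmol/kg, with the same sign: Slc22a5 (0.33), Slc22a21 (0.39), Slc22a7 (-0.76), Slco1a1 (-0.63) and Slco3a1 (-0.32). These comparisons share vehicle libraries. Leaving out TCE 0.67 mmol/kg replicate 1 gave 2 calls at that dose by edgeR, Slco3a1 (-0.49, adjusted p = 0.046) and Slc22a29 (1.12, adjusted p = 0.0481). That fit kept replicates 2 and 3 of the group, and replicate 3 is the library with adrenal cortex transcripts. Pooling both vehicle groups gave 1 call at 2 mmol/kg PCE by edgeR, Slc22a5 (0.32, adjusted p = 0.0449).

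A slope over the 5 dose levels, tested in the libraries of 1 chemical, called 6 of 31 members with PCE, where 3.38% of all genes were called. Slc22a5 rose by 0.13 log2 units per dose step (SE 0.02, adjusted p = 0.00558, edgeR) and Slc22a21 by 0.15. Slco1a1 fell by 0.23 per step, Slco3a1 by 0.17, Slc22a7 by 0.32 and Slc22a30 by 0.11. Slc22a28 (-0.16, adjusted p = 0.0524) and Slc22a22 (-0.10, adjusted p = 0.0597) did not pass by edgeR. Without PCE 6 mmol/kg replicate 2 or 3 the slope called 2 members, Slc22a5 and Slco1a1, and without replicate 1 of that dose or without vehicle replicate 2 it called 3, the same pair and Slco3a1. With TCE, 0 of 32 members passed, where 0% of all genes were called. An unadjusted p under 0.05 was reached by 9 of them and by 1242 of all 13685 genes. DESeq2 called 3 members, Slc22a7, Slco3a1 and Slc22a30, and the share of all genes it called is not given here. The lowest adjusted p by edgeR was that of Slco3a1, at 0.0811 (-0.13 per step). Without TCE 2 mmol/kg replicate 2, Slc22a7 passed (-0.29, adjusted p = 0.0063, edgeR), and without replicate 3 of that dose Slco3a1 did (-0.14, adjusted p = 0.0427, edgeR).

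In liver, PCE at 6 mmol/kg changed 3 of the 24 members tested: Slc22a7 and Slc22a30 fell and Slc22a5 rose. Of all 13159 genes tested in liver, 5.84% were called in that comparison. The median log2 change over the members was -0.09, against -0.00 over all genes. With TCE at 6 mmol/kg, 0 of 24 members passed by edgeR, where 1.31% of all genes were called. An unadjusted p under 0.05 was reached by 3 members (Slc22a7, Slc22a15 and Slc22a5) and by 1543 of the 13159 genes. DESeq2 called 1 member, Slc22a7 (adjusted p = 0.0181), and the share of all genes it called is not given here.

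**Figure D3:**
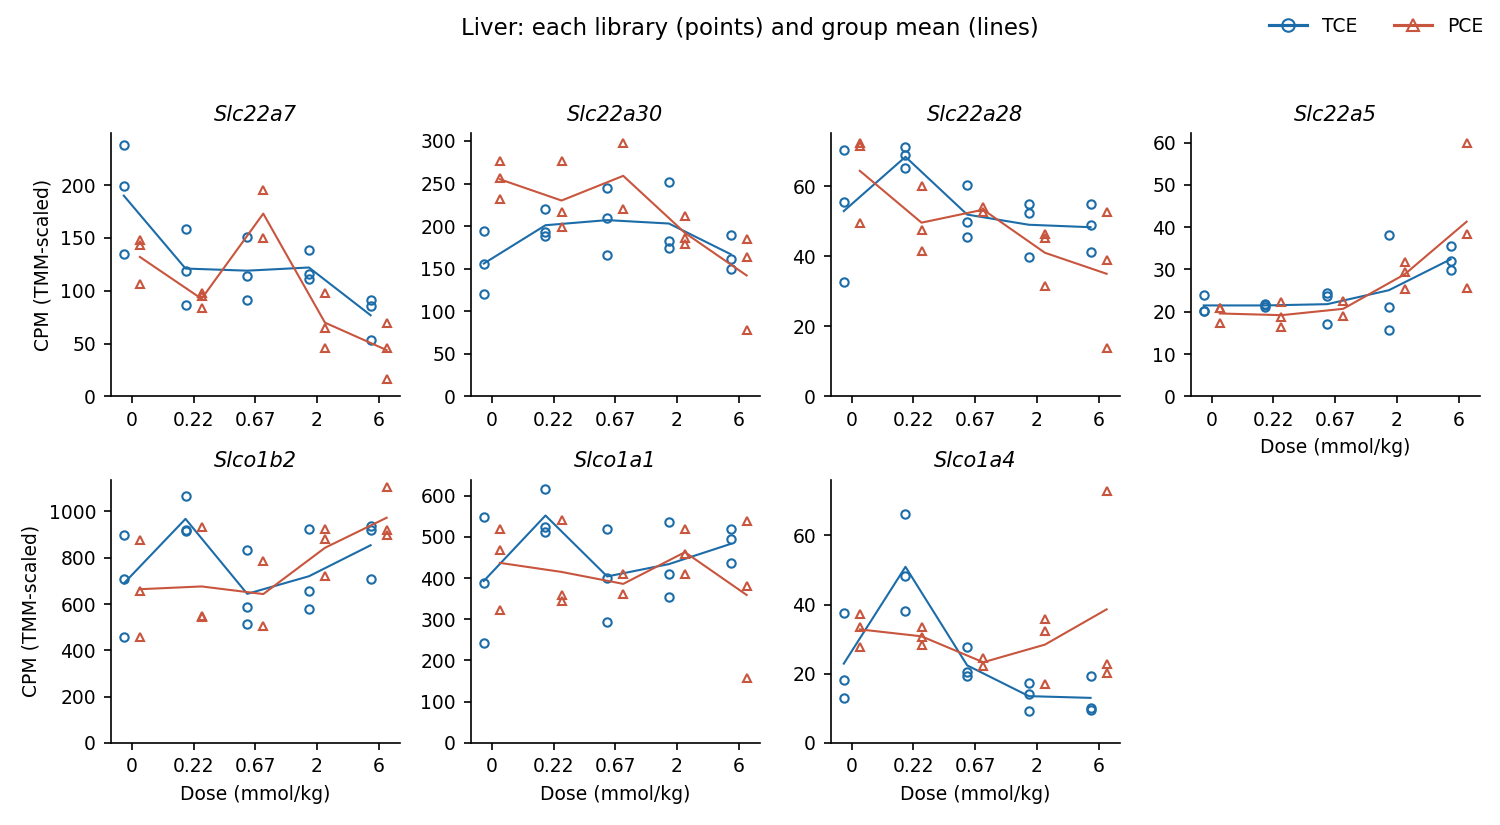
CPM of 7 members in each of the 29 liver libraries (points) and group means (lines) against dose in mmol/kg, TCE in circles and PCE in triangles. Slc22a7 lies below its vehicle libraries at 6 mmol/kg of both chemicals and Slc22a5 above them, while 1 PCE library at 6 mmol/kg lies far from the other 2 for Slco1a4 (72.9 CPM), Slco1a1 (157 CPM) and Slc22a28 (13.7 CPM).

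Slc22a7 stood at 106, 148 and 143 CPM in the liver PCE vehicle group and at 16.3, 69.4 and 45.5 CPM at 6 mmol/kg PCE. In the TCE vehicle group it stood at 238, 135 and 199 CPM and at 6 mmol/kg TCE at 53.8, 91.4 and 85.3 CPM. Neither treated group overlapped its vehicle group. The log2 change was -1.60 (SE 0.37, adjusted p = 0.0162, edgeR) with PCE and -1.31 (SE 0.36, adjusted p = 0.0833, edgeR) with TCE. Slc22a7 was the 1 member whose 6 mmol/kg libraries lay wholly on the same side of vehicle in both tissues with both chemicals. The 6 mmol/kg libraries of 1 chemical lay wholly to either side of vehicle for 30.2% of all liver genes with PCE, 18.3% with TCE, and for 31.9% and 15.9% of all kidney genes. At 2 mmol/kg PCE the share of all liver genes was 14.4%.

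Slc22a5 stood at 17.3, 20.8 and 20.8 CPM in the liver PCE vehicle group, at 25.5, 31.7 and 29.5 CPM at 2 mmol/kg and at 60, 25.6 and 38.3 CPM at 6 mmol/kg. Both dose groups lay wholly above vehicle, and the change at 6 mmol/kg was 1.08 (SE 0.26, adjusted p = 0.0191, edgeR). With TCE it stood at 20.1, 24 and 20.3 CPM in vehicle and at 29.8, 31.9 and 35.5 CPM at 6 mmol/kg, also without overlap. That change was 0.59 (SE 0.25) with an adjusted p of 0.336 by edgeR.

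Slc22a30 stood at 257, 277 and 232 CPM in the PCE vehicle group and at 77.6, 185 and 164 CPM at 6 mmol/kg, without overlap (log2 change -0.84, SE 0.24, adjusted p = 0.0412, edgeR). Its TCE vehicle group was lower, at 120, 194 and 156 CPM, and overlapped the 6 mmol/kg TCE libraries (161, 150 and 189 CPM). With both vehicle groups pooled, the PCE change was -0.49 with an adjusted p of 0.125 by edgeR.

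The liver calls also rest on single libraries. Without PCE 6 mmol/kg replicate 1, the changes were -1.20 for Slc22a7 (adjusted p = 0.0994), 0.71 for Slc22a5 (0.17) and -0.55 for Slc22a30 (0.202) by edgeR, and none passed. Without vehicle replicate 2, Slc22a7 and Slc22a5 were both at 0.0525 and Slc22a30 at 0.125. Without vehicle replicate 1, Slc22a5 (0.0674) and Slc22a30 (0.0835) were lost, and without 6 mmol/kg replicate 3, Slc22a7 (0.0519) and Slc22a30 (0.0676). Without 6 mmol/kg replicate 2, Slc22a28 was called as well (-1.30, adjusted p = 0.0222). With each library's slope of level on transcript length and base composition as covariates, Slc22a5 had an adjusted p of 0.105, Slc22a7 0.325 (change -0.84) and Slc22a30 0.262 by edgeR, and Slco2a1 was called instead (-1.13, adjusted p = 0.0382).

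At the lower doses in liver 0 of 24 members passed by edgeR with PCE (0.22, 0.67 and 2 mmol/kg, where 0.0076%, 0.0076% and 0.182% of all genes were called) and 0 of 24 with TCE (where 0%, 0.0076% and 0.0076% were called). DESeq2 called 0 of them. An unadjusted p under 0.05 was reached by 0, 0 and 3 members with PCE and by 1, 2 and 1 with TCE. Of all 13159 genes, 581, 997 and 1528 reached it with PCE and 774, 1049 and 1262 with TCE. The slope over doses called 2 of 24 members with PCE, where 11.8% of all genes were called, so the members' share was below that of all genes. Slc22a5 rose by 0.27 per dose step (SE 0.05, adjusted p = 0.00948, edgeR), and Slc22a30 fell by 0.19 (adjusted p = 0.0499, edgeR), a call lost in 14 of 19 alternatives, among them each library of the 2 and 6 mmol/kg groups left out in turn (adjusted p 0.0506 to 0.11). Without PCE vehicle replicate 3 the slope called 4 members, Slco1b2 (0.19) and Slc22a17 (-0.28) being added. With TCE, 0 of 22 members passed, where 0.852% of all genes were called. An unadjusted p under 0.05 was reached by 4 members and by 1764 of all 12436 genes. DESeq2 called 3 members, Slc22a7, Slc22a15 and Slco1a4, and the share of all genes it called is not given here. The lowest adjusted p by edgeR was that of Slc22a7, at 0.0741 (-0.26 per step). Without TCE vehicle replicate 1 edgeR called Slc22a15 (-0.17) and Slco1a4 (-0.49), and without 0.22 mmol/kg replicate 1 or 2 mmol/kg replicate 1 it called Slc22a7 (-0.28 in both).

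Several of the most abundant members of each tissue did not pass the test at 6 mmol/kg. In liver, Slco1b2 stood at 658, 459 and 876 CPM in the PCE vehicle group and at 898, 918 and 1105 CPM at 6 mmol/kg, all above vehicle, and the change of 0.55 had an adjusted p of 0.202 by edgeR. In kidney, Slc22a6 stood at 3063 and 2684 CPM in the PCE vehicle group and at 2276, 2407 and 2230 CPM at 6 mmol/kg, below vehicle without overlap, and its difference of -0.32 (95% interval -0.64 to 0.01) had an adjusted p of 0.315 by edgeR. Slc22a12 differed by -0.08 with PCE (-0.38 to 0.23) and by 0.04 with TCE (-0.23 to 0.32). Slc22a2 differed by -0.26 with PCE (-0.47 to -0.05, adjusted p = 0.184, edgeR) and by -0.23 with TCE (-0.42 to -0.03, adjusted p = 0.381, edgeR). Slc22a8 differed by 0.03 with PCE and by 0.42 with TCE (0.04 to 0.80, adjusted p = 0.421, edgeR). Slco4c1 in kidney differed by 0.34 (SE 0.64) with PCE and by -0.90 (SE 0.57) with TCE. Slco1a1 in liver differed by -0.28 with PCE and by 0.30 with TCE. Slco1a4 differed from vehicle in liver by 0.24 with PCE and -0.82 with TCE (adjusted p = 0.467, edgeR) and in kidney by 1.02 with PCE (adjusted p = 0.346, edgeR). Both PCE values rest on replicate 1 of the treated group: without it they were -0.61 in liver and -0.32 in kidney, where that library was at 15.6 CPM and the other 2 were at 2.43 and 3.13 CPM against 3.34 and 3.54 CPM in vehicle. Slco1b2 in kidney, a trace there, differed by -1.62 with PCE (adjusted p = 0.214, edgeR) and Slc22a2 in liver by 0.17. With both kidney vehicle groups pooled, edgeR called Slc22a2 (-0.32, adjusted p = 0.0183) and Slco1b2 (-2.09, adjusted p = 0.0193) with PCE.

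**Figure D4:**
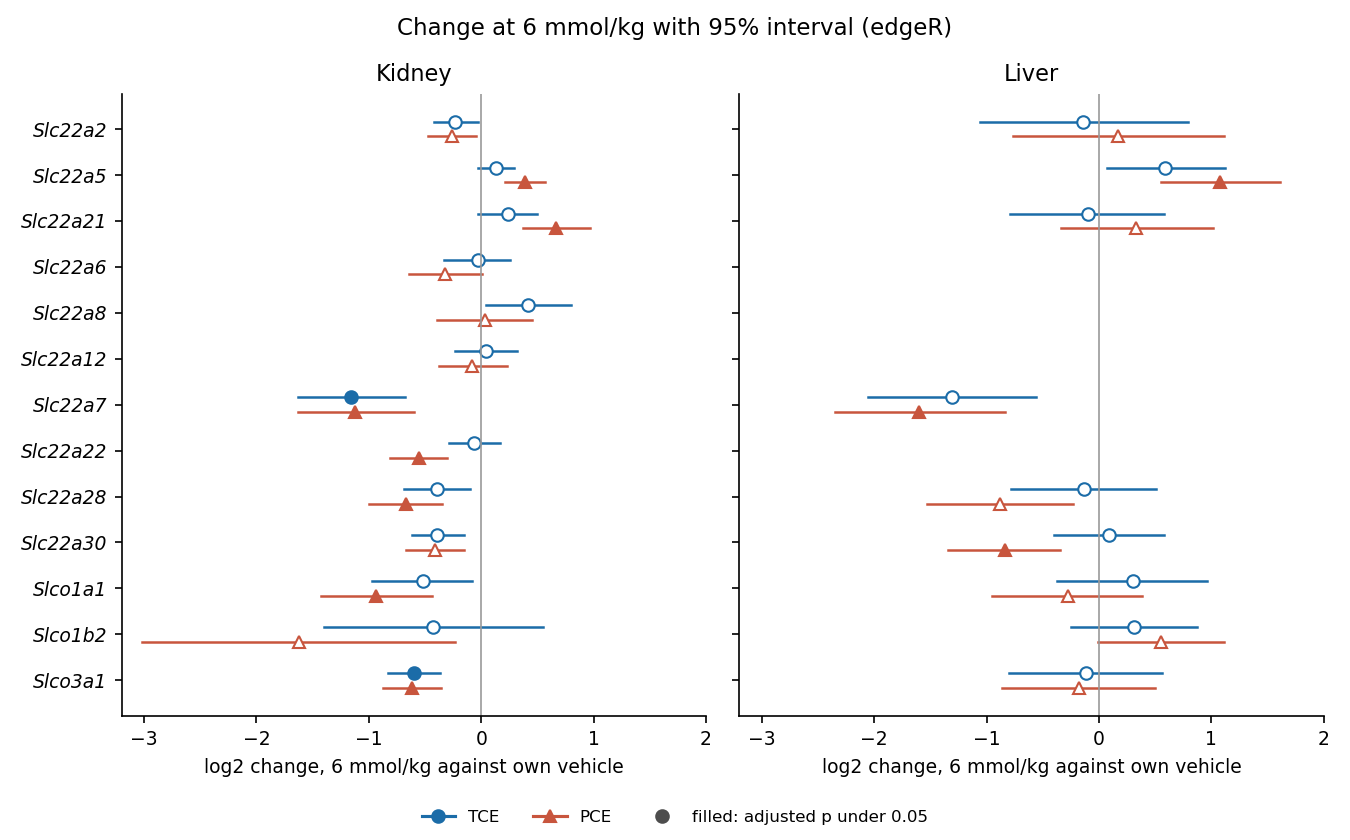
Log2 change at 6 mmol/kg against the chemical's own vehicle group with its 95% interval for 13 members in kidney and liver, TCE in circles and PCE in triangles, filled where the adjusted p by edgeR was under 0.05. In both tissues Slc22a7 lies between -1.60 and -1.12 and Slc22a5 between 0.13 and 1.08, and members that were not tested in liver are left blank there.

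TCE and PCE, which differ by the chlorine that PCE has in place of a hydrogen, were compared at each of the 4 matched molar doses in both tissues, 8 comparisons in all, by the difference of their log2 changes (PCE minus TCE). No member passed by edgeR in any of the 8, and DESeq2 called 0 as well. In kidney 0 of 32 passed at 0.22, 0.67, 2 and 6 mmol/kg, where 0%, 0%, 0% and 0.0211% of all genes were called. An unadjusted p under 0.05 was reached by 2, 6, 1 and 3 members and by 635, 2274, 597 and 1082 of all 14200 genes. In liver 0 of 24 passed, where 0%, 0.0228%, 0% and 0% of all genes were called. There an unadjusted p under 0.05 was reached by 1, 0, 2 and 1 members and by 632, 865, 913 and 1167 of all 13159 genes. These results do not show that the chemicals act alike, because the intervals are wide: at 6 mmol/kg the median half-width of the 95% interval over the members was 0.55 log2 units in kidney and 0.95 in liver. The interval lay wholly within 1 log2 unit of 0 for 18 of 32 members in kidney and for 4 of 24 in liver.

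For the members called at 6 mmol/kg in kidney, the difference of responses was -0.49 for Slc22a22 (-0.84 to -0.14, adjusted p = 0.43), 0.43 for Slc22a21 (0.03 to 0.83, adjusted p = 0.615) and 0.26 for Slc22a5 (0.02 to 0.50, adjusted p = 0.615) by edgeR. It was 0.04 for Slc22a7 (-0.66 to 0.75), -0.02 for Slco3a1 (-0.36 to 0.33), -0.28 for Slc22a28 (-0.72 to 0.16) and -0.41 for Slco1a1 (-1.08 to 0.25). In liver it was -0.93 for Slc22a30 (-1.63 to -0.23, adjusted p = 0.495, edgeR), 0.48 for Slc22a5 (-0.26 to 1.22) and -0.29 for Slc22a7 (-1.33 to 0.76). The liver vehicle groups of the chemicals themselves did not overlap for Slc22a30 (120 to 194 CPM with TCE and 232 to 277 CPM with PCE).

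Whether a member responded differently in the tissues was tested in a fit of all 58 libraries, as the kidney change minus the liver change at 6 mmol/kg. By edgeR 0 of 32 members passed with PCE, where 0.717% of all genes were called, and 0 of 32 with TCE, where 0.328% were called. DESeq2 called 0 for both, and 4 and 1 members had an unadjusted p under 0.05. Of all 14933 genes, 2036 with PCE and 1328 with TCE had such a p. For Slc22a5 the difference was -0.68 with PCE (-1.26 to -0.11, adjusted p = 0.27, edgeR), and for Slc22a7 it was 0.50 with PCE (-0.44 to 1.44) and 0.16 with TCE (-0.72 to 1.04). For Slco1a1 it was -0.65 with PCE (-1.47 to 0.17) and -0.83 with TCE (-1.61 to -0.06, adjusted p = 0.499, edgeR).

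Single libraries carried many of the members' extreme values. Liver PCE 6 mmol/kg replicate 1 held the lowest or highest of 29 liver values for 9 of 24 members: Slc22a7, Slc22a28, Slc22a30, Slco1a1 and Slco2a1 were lowest there, and Slc22a5, Slc22a21, Slc22a26 and Slco1a4 highest. Kidney PCE 6 mmol/kg replicate 1 held the extreme of 29 kidney values for 7 of 32 members. The untreated kidney TCE vehicle replicate 1 did so for 7 of 32 as well. How often a library held the extreme over all genes was not counted. Slc22a28, Slc22a30 and Slco1a1 were lowest and Slco1a4 highest in PCE 6 mmol/kg replicate 1 of both tissues. Slco1a4 was at 72.9 CPM in that liver library, against 20.2 and 22.8 in the other libraries of the group, and at 15.6 CPM in that kidney library, against 2.43 and 3.13. The labels do not say whether the liver and kidney libraries of 1 number come from 1 animal.

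In kidney, TCE 2 mmol/kg replicate 2, the library poor in S1 and S2 markers, held the extreme value for 11 of 32 members. It was highest for Slc22a13, Slc22a15, Slc22a19, Slc22a26, Slco4a1 and Slco4c1 and lowest for 5 others, among them Slc22a6, Slc22a18, Slc22a23 and Slco1a6. Slco4a1 was at 44.9 CPM there against a median of 6.96 over the 29 libraries, Slco4c1 at 16.3 against 7.62, Slc22a26 at 52.6 against 22.5, Slc22a19 at 270 against 138 and Slc22a13 at 199 against 124. Slc22a6 was at 1802 CPM against a median of 2547. Slc22a13, Slc22a19, Slc22a26 and Slco4c1 also deviated together in vehicle kidneys: in the TCE group they were at 93.9, 111, 18.4 and 4.15 CPM in replicate 2, below both other replicates (177 and 180, 221 and 208, 49.6 and 30.3, 13.9 and 14.4). The part of the S1, S2, S3, loop of Henle, distal tubule, collecting duct, cholangiocyte and tubular injury marker levels in these differences was not tested.

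**Figure D5:**
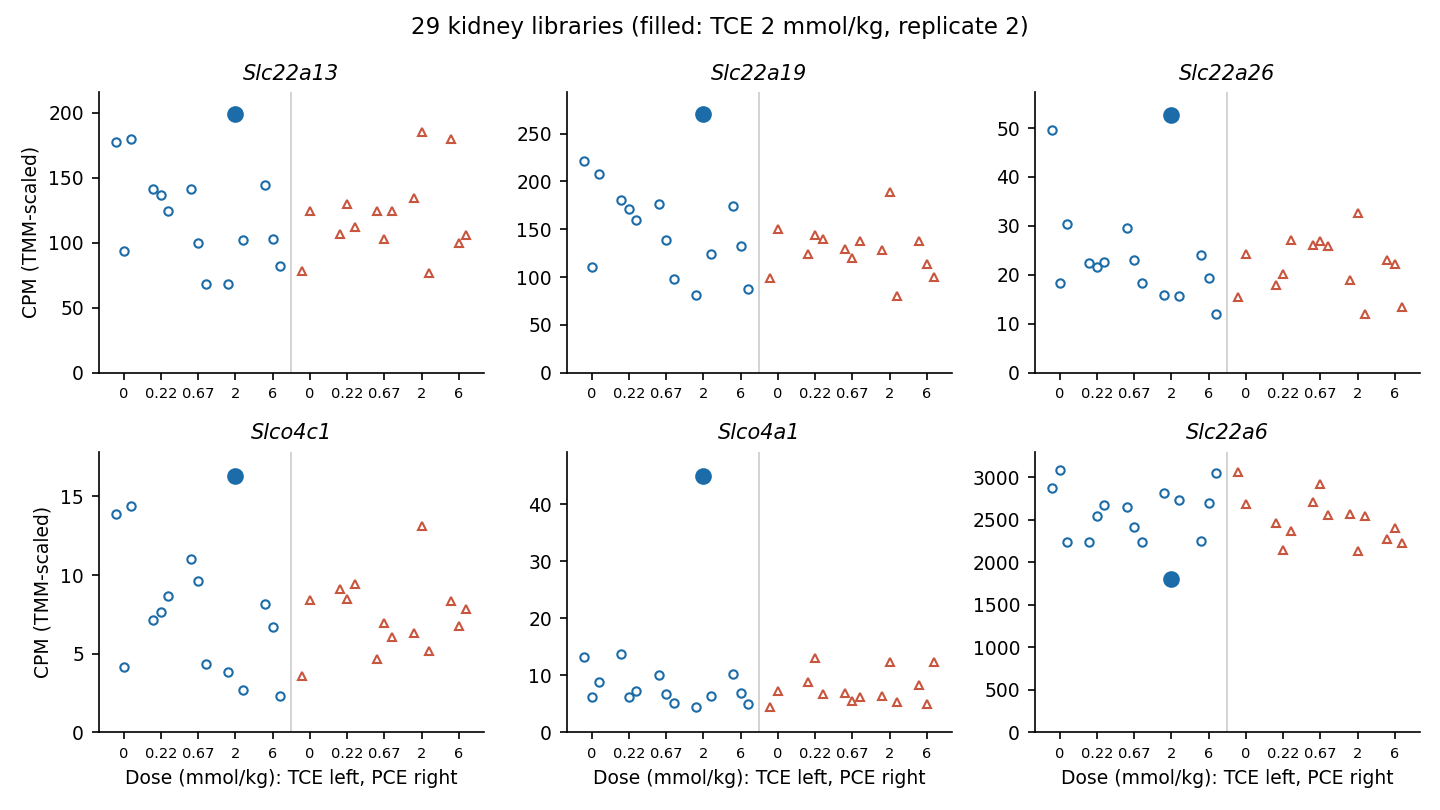
CPM of 6 members in each of the 29 kidney libraries against dose in mmol/kg, TCE at the left and PCE at the right, with TCE 2 mmol/kg replicate 2 filled. That library is the highest for Slc22a13, Slc22a19, Slc22a26, Slco4c1 and Slco4a1 and the lowest for Slc22a6, at 44.9 CPM for Slco4a1 against a median of 6.96 CPM.

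Genes that work with these carriers were counted from lists that are no part of the families. These lists, too, were chosen with earlier results of these data known. Of 9 genes of carnitine synthesis and use, PCE at 6 mmol/kg raised 5 in kidney and lowered none, with a median log2 change of 0.46 against 0.03 over all genes, and raised 3 in liver, with a median of 0.51 against -0.00. Of all genes, 3.85% and 5.84% were called in these comparisons. In kidney the smallest adjusted p by edgeR was that of Slc25a20, the mitochondrial carnitine-acylcarnitine carrier, at 0.0029 (change 0.78), and in liver that of the same gene at 0.0168 (0.68). TCE raised 2 of the 9 in liver, Slc25a20 (0.71) with the smaller adjusted p, and 0 in kidney, where 5 had an unadjusted p under 0.05. Of all 14200 kidney genes, 1436 had such a p with TCE. Slc22a5 supplies carnitine to this pathway, and its values stand above.

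Of 20 efflux and partner transporters tested in kidney (23 in the list), PCE at 6 mmol/kg raised 2 and lowered 2, where 3.85% of all genes were called. Abcb1a, a P-glycoprotein, rose by 1.56 (adjusted p = 0.005, edgeR), and Slc47a1, the proton-coupled efflux carrier that works in series with Slc22a2, fell by 0.43 (adjusted p = 0.0144, edgeR). By edgeR 0 of the 20 passed with TCE, and 4 had an unadjusted p under 0.05, as had 1436 of all 14200 genes. In liver, where 5.84% of all genes were called with PCE and 1.31% with TCE, PCE lowered 2 of 19, of which Abcc6 had the smaller adjusted p (-0.77), and TCE lowered 1, Slc13a3 (-1.02), the dicarboxylate carrier whose substrate drives the Slc22 anion exchangers.

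Slco1a1 is known for higher expression in males than in females in mouse kidney and liver. Of 8 other genes with male-biased expression in kidney, PCE at 6 mmol/kg lowered 4 and TCE 1, with medians of -0.72 and -0.41 against 0.03 and 0.01 over all genes, of which 3.85% and 0.176% were called in either direction, the called gene with the smallest adjusted p being Slc7a13 with both. Of 9 male-biased liver genes, each chemical lowered 1 in liver, Elovl3 (-1.16 with PCE and -1.12 with TCE), with list medians of -0.28 and -0.05 against -0.00 and -0.04 over all genes, of which 5.84% and 1.31% were called. Of 8 female-biased liver genes, 5 were tested there, of which PCE raised 1, Cyp2a4 (1.67), and TCE 0. The medians over these 5 were 1.17 with PCE and 0.69 with TCE, against -0.00 and -0.04 over all genes. With TCE an unadjusted p under 0.05 was reached by 1 of the 5 and by 1543 of all 13159 genes.

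The remaining members were scarce. In kidney 7 members were not tested because of low counts, and Slc22a16 (a testis carnitine carrier), Slco1a5, Slco6c1 and Slco6d1 (testis polypeptides) had 0 counts in all 29 kidney libraries. Slc22a20, Slco1c1 (a thyroxine carrier of the blood-brain barrier) and Slco5a1 were at 0 in 27, 15 and 15 of the 29. In liver 15 members were not tested, and Slc22a8, Slco1a5, Slco6c1 and Slco6d1 had 0 counts in all 29 libraries. Slco1a5 and Slco6d1 have several transcripts, and whether reads of theirs went to the ambiguous line cannot be told. Over all members tested, the log2 change at 6 mmol/kg PCE in kidney reached from -1.62 (Slco1b2, at most 0.927 CPM) to 1.71 (Slc22a14, at most 1.26 CPM), and these scarce genes at both ends did not pass the test. Slc22a14 was not tested between tissues with the filter on low counts, and without that filter it was called higher in kidney (3.33, adjusted p = 5.24e-05, edgeR).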

How the data were processed

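The deposited tables hold raw counts per RefSeq transcript for 29 liver and 29 kidney libraries, with lines for ambiguous and no_feature reads, per the file headers. In the columns at 0.22 and 0.67 mmol/kg a header line carries a decimal dose, so the deposited values there were read as estimated counts. Every value was whole, and rounding changed none. CASAVA 1.8.2, TopHat2 2.0.10, HTSeq and build mm10 are named, per the submitters' processing notes. Annotation version, strand setting and filters are not given in the sources used here. Ambiguous reads (19.68 to 22.55% of the listed reads per library) and no_feature reads (14.29 to 22.29% in liver and 20.49 to 27.53% in kidney) were left out of library sizes and tests. Liver controls and the top dose were sequenced more deeply, per the labels, so low counts are more precise there.

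Transcripts were summed per symbol. Counts were tested by edgeR 4.0.16 (R 4.3.3, limma 3.58.1) with TMM factors, filterByExpr, robust quasi-likelihood fits over all libraries of a tissue and two-sided tests, with Benjamini-Hochberg adjustment over all genes tested, and called at an adjusted p under 0.05. Slopes were fitted to dose rank within 1 chemical, the vehicle comparison to 11 libraries, and the tissue difference of responses to all 58. DESeq2 1.42.0, other scalings and filters, a replicate block, length and base composition covariates, pooled vehicle groups and left-out libraries were tried as alternatives. Leaving out 2 kidney libraries together and library totals in place of TMM were chosen after seeing the data. The fits were tested on simulated data. Of 56 pairs of replicates the lowest chi-square per degree of freedom was 13.6, so none agreed within sampling noise.

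Members were named with values where called in a dose comparison, slope or difference of responses, where among the 5 highest levels per length or the 5 widest called tissue differences each way, and, whatever their result, for Slc22a2, Slc22a5, Slc22a6, Slc22a7, Slc22a8, Slc22a12, Slco1a1, Slco1a4, Slco1b2 and Slco4c1. Of other lists the called gene with the smallest adjusted p each way was named. Further genes, such as those gained under an alternative, were named after their values were seen. The members and lists were chosen with earlier results of these data known. Results for some of the genes are not reported here.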

Additional observations from a re-analysis of the deposited data

Results flagged for a closer look

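Among 54 sets of vehicle values, 1 for each tested member and tissue with enough counts, 2 held a library far from the others, and chance gives such a gap in about 1 in 20. In liver, Slc22a4, the ergothioneine carrier, was at 3.29 CPM in PCE vehicle replicate 1, below the other 5 vehicle libraries, which ran from 4.7 to 5.51 CPM. In liver, Slc22a17, the lipocalin 2 receptor, was at 3.42 CPM in PCE vehicle replicate 2, above the other 5, which ran from 1.15 to 2 CPM. Neither gene was called in liver at 6 mmol/kg of either chemical.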

How the results depend on the processing

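Under the alternatives to edgeR with TMM, the counts of members called moved as follows. DESeq2 gave 1 call in place of 0 in liver at 6 mmol/kg TCE, 3 in place of 0 for the liver TCE slope, 4 in place of 2 for the liver PCE slope and 3 in place of 0 for the kidney TCE slope. The shares of all genes that DESeq2 called in these comparisons are not given here. In liver at 6 mmol/kg PCE (3 calls), length and base composition covariates left 1. In kidney at 6 mmol/kg TCE (2 calls), no filter on low counts left 1, pooled vehicle groups 1 and a fit of 1 chemical 0. Pooled vehicle groups gave 1 call in place of 0 at the lower kidney PCE doses. For the liver PCE slope, size factors of DESeq2 left 1 and no filter on low counts 1. Leaving out the kidney library with adrenal transcripts and the one low in S1 and S2 markers together gave 2 calls in place of 0 for the kidney TCE slope. With 1 library left out in turn, calls ranged from 0 to 4 in liver at 6 mmol/kg PCE, from 0 to 2 in kidney at 6 mmol/kg TCE, from 0 to 7 in kidney at 6 mmol/kg PCE, from 0 to 2 at the lower kidney TCE doses, from 0 to 2 for the liver TCE slope, from 1 to 4 for the liver PCE slope, from 0 to 1 for the kidney TCE slope and from 2 to 8 for the kidney PCE slope. Fewer libraries enter those fits, and the cause was otherwise not tested. Slc22a23, at -0.70 between tissues in vehicle libraries, was at 0.34 (adjusted p = 0.102, edgeR) with library totals in place of TMM, which rescale the tissues against each other. The differences between PCE and TCE and between tissues gave 0 calls under every alternative run.

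No pairing by replicate number was seen throughout a comparison: in 0 of 18 did every same-numbered pair deviate together at a correlation above 0.1. Correlations ran from -0.656 to 0.593 between dose and vehicle and from -0.227 to 0.227 between liver and kidney. Liver and kidney were compared in the vehicle groups only. Whether same-numbered liver and kidney libraries of the dosed groups belong together was not tested. With the replicate block, calls were 0 (TCE) and 3 (PCE) in liver and 2 and 8 in kidney at 6 mmol/kg, 0 at all lower doses, 0 and 1 for the liver slopes, 0 and 7 for the kidney slopes, 27 between tissues in vehicle libraries, and 0 for each difference of responses.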
